A study of Homo sapiens with 8 samples.

Results

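The genes described here encode enzymes making or converting asparagine, proline, glutamate, alanine, aspartate and cysteine: ASNS, ALDH18A1, PYCR1, PYCR3, GPT2, GOT1, CTH and CBS. They were taken from the gene table by symbol, through the Ensembl identifier without its version, and all 8 were found among 60651 rows. The data were ribosome footprints, pieces of mRNA kept from digestion by the ribosome that is reading them, in IMR32, a human neuroblastoma line with amplified MYCN and a wild-type genotype label. Cells were given CR31B, a silvestrol analogue that targets the RNA helicase eIF4A (4 libraries), or the solvent DMSO at 0.1% as the control (4 libraries). Treatment lasted 6 h, and every library of both groups was treated with cycloheximide, which halts elongating ribosomes, before harvest. The series calls the 4 libraries of a group biological replicates, the dose of CR31B is not given in the sources used here, and all libraries come from 1 cell line. Values are TPM, which are scaled for length and to the same sum in each library. Whether that length was the whole transcript or its coding part is not given in the sources used here. Footprints come mostly from the coding part, so orders of level between genes hold for TPM only. The table holds no read counts, so no counting interval is given.

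Cells make asparagine from aspartate with ASNS, taking the amide nitrogen from glutamine. Proline is made from glutamate: ALDH18A1 forms the pyrroline carboxylate intermediate in mitochondria and PYCR enzymes reduce it. GPT2 and GOT1 are aminotransferases that move nitrogen between glutamate and alanine or aspartate. CBS and CTH carry sulfur from homocysteine to cysteine, which feeds glutathione. Several of these genes are known targets of ATF4, the transcription factor of the integrated stress response, which binds DNA at composite sites of the C/EBP and ATF type and is itself controlled at translation.

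The ASNS promoter is known for such a site, so the letters TGATGNAA were searched on both strands in RefSeq promoter windows (build GRCh38.p14) running from 250 bases before to 50 bases after each annotated start. Windows were found for 5 of the 8 genes, 8 windows in all because ASNS and CBS have several annotated starts. No window was found for PYCR1, GPT2 or PYCR3, so these genes, of which PYCR1 and GPT2 are called below, were not searched. Of the 8 windows, 2 held the letters, 1 of ASNS and 1 of GOT1. The matching stretches are printed below, from 5′ to 3′ on the gene's strand, with the match in capitals. A relation between these letters and the fold changes was not tested.
ASNS, chr7:97872458-97872487, minus strand: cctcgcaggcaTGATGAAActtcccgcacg
GOT1, chr10:99430804-99430833, minus strand: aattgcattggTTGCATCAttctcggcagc
The ASNS match reads along the gene's strand, 68 to 61 bases before the start. The GOT1 match lies on the opposite strand, 198 to 191 bases before the start. Of all 34943 promoter windows of this length, 1266, or 3.62%, held the letters. The letters were chosen for the known ASNS site, so the ASNS match is not an independent result beside that share. The other ASNS window and the windows of ALDH18A1, CTH and CBS did not hold these letters. For ASNS and GOT1 the GENCODE gene begins before the RefSeq start used here, so both matches lie inside the gene as GENCODE annotates it.

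Each gene was tested with limma on log2(TPM + 1), and a gene was called when its adjusted p (Benjamini-Hochberg, over the 11778 genes whose mean in the 8 libraries reached 1 TPM) was under 0.05. All 8 enzyme genes passed that filter. ASNS, GPT2 and PYCR1 rose under CR31B, none of the 8 was called lower, and ALDH18A1, PYCR3, GOT1, CTH and CBS were not called. Over all genes tested, 7.46% were called, 3.45% higher and 4.02% lower. For the same 3 genes all CR31B libraries lay above all DMSO libraries, against 8.07% of all genes (8.14% in the other direction). Of the 8 genes, 6 had a log2 fold change above 0, as had 54.1% of all genes tested. CBS, below 0 in this count, is read without its near-identical copy CBSL, and the summed pair had 0.22. The genes were chosen with earlier results of these data known, so these counts are a description. The median log2 fold change of the 8 genes was 0.42, and that of all genes tested was 0.029. No RNA-seq of the same cells was analysed here, so the amount of mRNA and the ribosomes per mRNA cannot be told apart. In such bulk libraries, fewer cells of a kind and less RNA per cell cannot be told apart either.

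**Figure D1:**
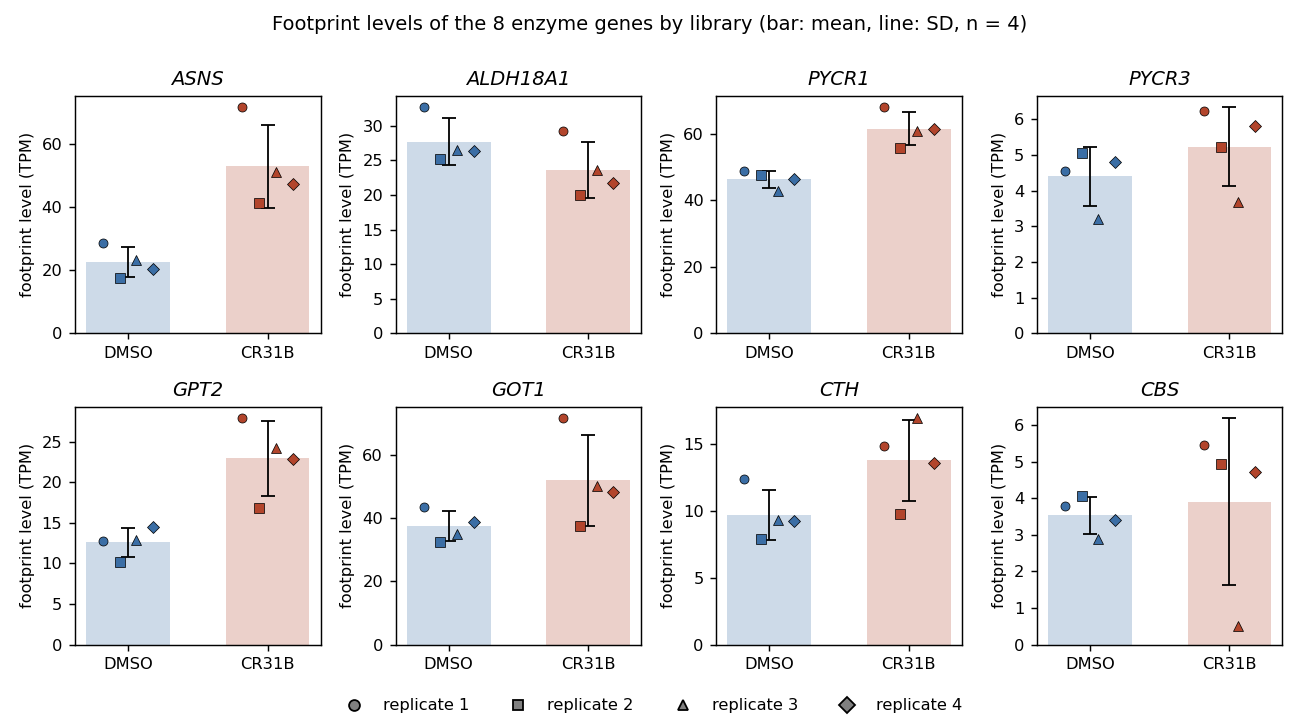
Footprint level (TPM, vertical axis from 0) of each of the 8 enzyme genes in the 4 DMSO and 4 CR31B libraries, with the mean as a bar, the SD as a line and a marker shape for each replicate number. ASNS, GPT2 and PYCR1 show no overlap between the groups, and CBS shows 1 CR31B library at 0.51 TPM.

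ASNS (ENSG00000070669.17, chr7:97852118-97872542, minus strand; all positions in GRCh38), asparagine synthetase, gave 71.58, 41.23, 50.98 and 47.30 TPM under CR31B (replicates 1 to 4 in order) against 28.61, 17.48, 23.27 and 20.48 TPM under DMSO. Every CR31B library was above every DMSO library, and replicate 1 was the highest library of both groups. The means were 52.8 ± 13.2 TPM with CR31B and 22.5 ± 4.73 TPM with DMSO (± SD, 4 libraries a group). Limma estimated a log2 fold change of 1.19 (SE 0.19; 95% interval 0.77 to 1.61; adjusted p 0.005685), or 2.28-fold on the TPM + 1 scale. The two-sided exact permutation p was 0.0286, the smallest that 4 against 4 libraries allow. ASNS was called in each of 15 alternative settings, with limma adjusted p from 0.000826 to 0.0333. Of the 4 ASNS pseudogenes listed, ASNSP1 had the highest level and averaged 0.70 TPM; how many reads match both was not tested.

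GOT1 (ENSG00000120053.12, chr10:99396870-99431569, minus strand), the cytosolic aspartate aminotransferase, gave 71.78, 37.68, 50.31 and 48.29 TPM under CR31B (replicates 1 to 4 in order) against 43.45, 32.59, 35.08 and 38.74 TPM under DMSO. It was higher in CR31B in 4 of 4 pairs of the same replicate number, yet the lowest CR31B library lay below DMSO replicates 1 and 4. The share of all genes that reach 4 of 4 pairs was not computed. Such counts, here and for the genes below, are thus a description without a background. GOT1 had a log2 fold change of 0.43 (SE 0.18, 95% interval 0.032 to 0.83). Its limma adjusted p was 0.180 and its exact permutation p was 0.0857, so it was not called. Libraries of the same replicate number deviated together, and with that number as a block the limma adjusted p was 0.0430. After rescaling TPM over protein-coding genes it was 0.0486. Leaving out CR31B replicate 1 lowered the difference to 0.27 on the log2 scale.

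The mitochondrial form GOT2 had a higher TPM than GOT1 in all 8 libraries. Its means were 101.7 ± 18.96 TPM with CR31B and 96.3 ± 11.97 TPM with DMSO (± SD, 4 libraries a group). Its log2 fold change was 0.069 (95% interval -0.26 to 0.40, limma adjusted p of 0.831) and turned to -0.049 without CR31B replicate 1. GOT1 took from 27.8% to 28.2% of the summed GOT level in the 4 DMSO libraries. In CR31B replicates 1 to 4 it took 35.8%, 28.1%, 37.4% and 33.1%. The share was thus nearly the same in the DMSO libraries and varied in CR31B, where 3 libraries lay above and replicate 2 lay within the DMSO range.

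In the proline branch, ALDH18A1 (ENSG00000059573.9, chr10:95605929-95656706, minus strand), which forms the pyrroline carboxylate intermediate, gave 29.18, 19.99, 23.64 and 21.69 TPM under CR31B (replicates 1 to 4 in order) against 32.73, 25.26, 26.45 and 26.33 TPM under DMSO. Its level was lower in CR31B in 4 of 4 pairs, while the groups overlapped through CR31B replicate 1. Limma estimated a log2 fold change of -0.23 (SE 0.14; 95% interval -0.54 to 0.084; adjusted p 0.367; exact permutation p of 0.171). Leaving out CR31B replicate 1 gave -0.33, and leaving out DMSO replicate 1 gave -0.15. It was not called in any of the 15 alternative settings.

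PYCR1 (ENSG00000183010.17, chr17:81932384-81942412, minus strand), the mitochondrial reductase that completes proline synthesis, gave 68.12, 55.90, 60.80 and 61.35 TPM under CR31B (replicates 1 to 4 in order) against 48.71, 47.52, 42.86 and 46.49 TPM under DMSO. It had the highest DMSO mean TPM of the 8 genes, with CBS counted without CBSL, and rose in all CR31B libraries beyond the DMSO range. Means were 61.5 ± 5.02 TPM and 46.4 ± 2.53 TPM (± SD, 4 libraries a group). Limma estimated a log2 fold change of 0.40 (SE 0.10; 95% interval 0.17 to 0.63; adjusted p 0.0442; exact permutation p of 0.0286), or 1.318-fold. This call was close to the threshold. It was lost without any 1 library except CR31B replicate 2, with a limma adjusted p of 0.114 without DMSO replicate 4, with no filter on low values (0.0533) and without the mean-variance trend (0.0645). Its log2 fold change stayed between 0.35 and 0.44 when single libraries were left out.

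PYCR3 (ENSG00000104524.14), the cytosolic form, gave 6.22, 5.21, 3.69 and 5.82 TPM under CR31B against 4.55, 5.05, 3.21 and 4.80 TPM under DMSO. It was higher in CR31B in 4 of 4 pairs, but the groups overlapped (log2 fold change 0.20, SE 0.18, limma adjusted p 0.539, exact permutation p 0.314). Its log2 fold change was 0.086 when DMSO replicate 3 was left out and 0.33 when CR31B replicate 3 was left out, the lowest and highest of such values. The ratio of PYCR1 to ALDH18A1, computed after their values were seen and therefore not tested, does not depend on how a library is scaled. It was 2.33, 2.80, 2.57 and 2.83 in CR31B replicates 1 to 4 and 1.49, 1.88, 1.62 and 1.77 in DMSO, with no overlap.

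**Figure D2:**
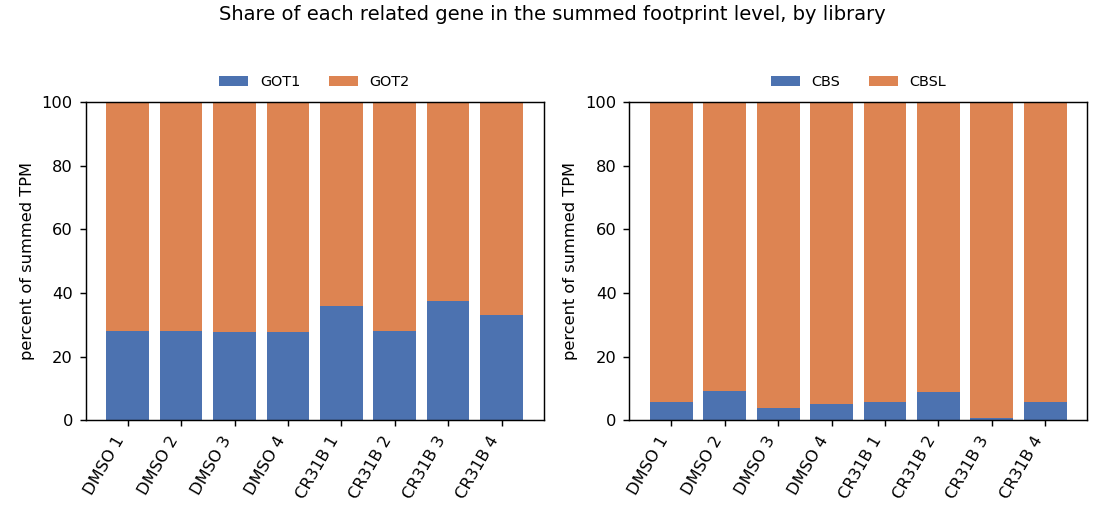
Percent of the summed TPM taken by each gene of the GOT and CBS groups in each DMSO and CR31B library (stacked bars, vertical axis from 0 to 100). GOT1 takes between 27.8% and 37.4%, and CBS no more than 9.11% of the level it shares with CBSL.

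GPT2 (ENSG00000166123.14, chr16:46884378-46931297, plus strand), the mitochondrial alanine aminotransferase, gave 27.94, 16.84, 24.27 and 22.85 TPM under CR31B (replicates 1 to 4 in order) against 12.77, 10.20, 12.89 and 14.55 TPM under DMSO. Replicate 2 was the lowest library of both groups, and its CR31B value still exceeded every DMSO value. Means were 23.0 ± 4.62 TPM and 12.6 ± 1.80 TPM (± SD, 4 libraries a group). Limma estimated a log2 fold change of 0.81 (SE 0.16; 95% interval 0.44 to 1.17; adjusted p 0.0164; exact permutation p of 0.0286), or 1.75-fold. It was called in 14 of 15 alternative settings and reached a limma adjusted p of 0.0626 with no filter on low values. GPT, the cytosolic form, was listed at 0 in all 8 libraries.

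In the cysteine branch, CTH (ENSG00000116761.12, chr1:70411218-70439851, plus strand), which releases cysteine from cystathionine, gave 14.80, 9.74, 16.91 and 13.57 TPM under CR31B (replicates 1 to 4 in order) against 12.34, 7.89, 9.28 and 9.20 TPM under DMSO. It was higher in CR31B in 4 of 4 pairs, and the groups overlapped only between CR31B replicate 2 and DMSO replicate 1. The log2 fold change was 0.46 (SE 0.18, 95% interval 0.059 to 0.86) with a limma adjusted p of 0.155 and an exact permutation p of 0.0571. It was not called in any alternative, and the replicate block gave the lowest limma adjusted p, 0.0570.

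CBS (ENSG00000160200.18, chr21:43053191-43076943, minus strand), which forms cystathionine, cannot be read alone. The annotation holds a near-identical gene on the same chromosome, CBSL (ENSG00000274276.4, chr21:6444869-6468040, minus strand): the coding sequences of the principal transcripts have 1653 nt each and differ at 1 position, and 98.2% of all 30-nt windows of CBS also occur in CBSL. Reads of footprint length therefore rarely tell the copies apart. CBS gave 5.47, 4.93, 0.51 and 4.73 TPM under CR31B against 3.79, 4.07, 2.89 and 3.40 TPM under DMSO. CBSL gave 89.12, 50.68, 60.42 and 76.41 TPM with the drug and 60.58, 40.60, 71.46 and 61.37 TPM without it. CBS thus took from 0.837% to 9.11% of the pair. Its own log2 fold change was -0.081 (SE 0.40 and limma adjusted p 0.930) and turned to 0.42 without CR31B replicate 3. With the pair summed, an alternative added after seeing the data, the levels were 73.1 ± 18.1 TPM with CR31B and 62.0 ± 12.5 TPM with DMSO (± SD, 4 libraries a group). The summed log2 fold change was 0.22 (SE 0.20, 95% interval -0.22 to 0.66, limma adjusted p 0.548, exact permutation p 0.371). The summed pair stood above each of the other 7 genes in mean TPM in both groups.

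**Figure D3:**
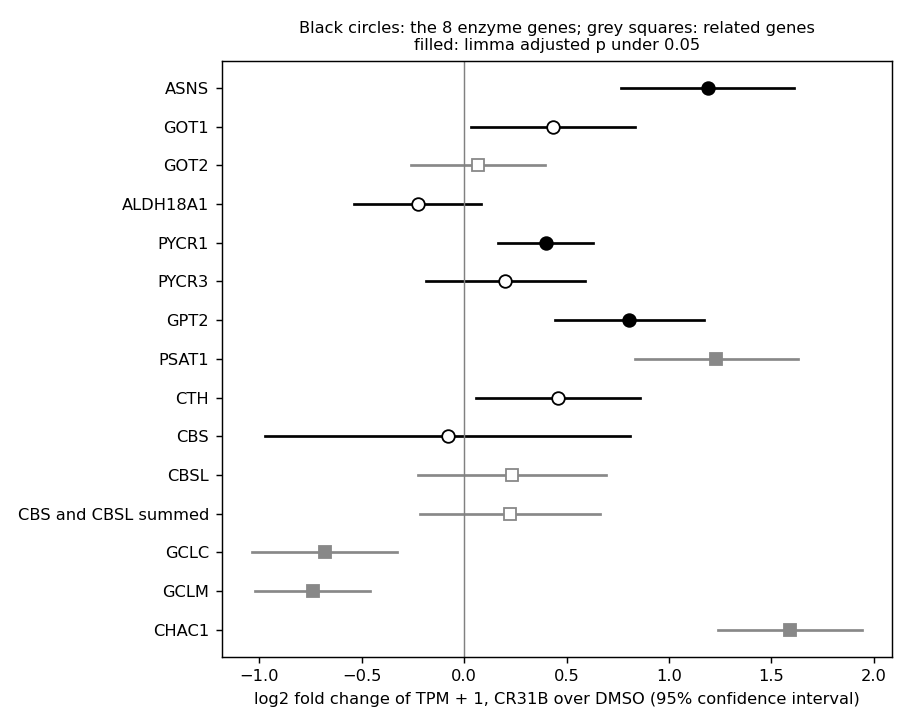
Log2 fold change of TPM + 1 in CR31B over DMSO with its 95% confidence interval (horizontal axis) for the 8 enzyme genes (black circles) and related genes (grey squares), filled where the limma adjusted p was under 0.05. Of the 8 genes, ASNS, PYCR1 and GPT2, and also GOT1 and CTH, which were not called, have intervals above 0. That of CBS runs from -0.97 to 0.81. The intervals are not adjusted for the number of genes tested.

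The order of mean TPM in DMSO was PYCR1, GOT1, ALDH18A1, ASNS, GPT2, CTH, PYCR3 and CBS, from 46.4 to 3.54 TPM. CBS stands last only when read without CBSL, since the summed pair had 62.0 TPM in DMSO. Ranges of neighbours in that order overlapped except between ASNS and GPT2 and between CTH and PYCR3. In CR31B, the TPM of ASNS (52.8 ± 13.2) and GOT1 (52.0 ± 14.3, ± SD, 4 libraries a group) did not differ beyond their spread. ASNS stood above ALDH18A1 in every CR31B library. The coding part was 1239 of 2923 nt in GOT1, 1569 of 3984 nt in GPT2 and 1683 of 2356 nt in ASNS. The order could therefore differ on another length scale, which was not tested. CR31B replicate 1 was the highest CR31B library for 7 of the 8 genes. Protein-coding genes took 61.3% of the TPM there, between 51.8% and 52.3% in CR31B replicates 2 to 4, and between 52.0% and 58.4% under DMSO; the part of this share in the results was not tested. Without that library the log2 fold changes of ASNS and GPT2 were 1.03 and 0.71, and both were still called.

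The pathway genes around the 8 enzymes were taken from 4 lists, in which 55 of 72 genes were tested. Of these, 6 were called higher and 2 lower, with a median log2 fold change of 0.069. Over all genes tested, 3.45% were called higher and 4.02% lower, 7.46% in all, and each list count below stands beside these shares. With the 8 enzyme genes left out, 3 of 47 were called higher (PSAT1, ODC1 and CHAC1) and 2 lower (GCLC and GCLM), and the median was 0.031, beside 0.029 over all genes. Among asparagine and aspartate genes 1 of 11 tested was called, ASNS.

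Among proline and ornithine genes 2 of 11 tested were called, both higher: PYCR1 and ODC1. ODC1, which makes the polyamine putrescine from ornithine, went from 58.3 ± 4.01 to 107.9 ± 34.0 TPM (± SD, 4 libraries a group; log2 fold change 0.83, limma adjusted p of 0.0312). The ODC1 call was lost in 6 of 15 alternatives, among them leaving out CR31B replicate 1 or 4 or DMSO replicate 1, 2 or 4.

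In the list of glutamate, glutamine and alanine genes 2 of 13 tested were called, PSAT1 and GPT2, both higher. PSAT1, the aminotransferase of serine synthesis that uses glutamate, gave 65.70, 40.68, 46.88 and 54.82 TPM under CR31B against 27.76, 17.04, 19.66 and 21.80 TPM under DMSO (log2 fold change 1.23, limma adjusted p of 0.00380). Every CR31B library of PSAT1 lay above every DMSO library, and it was called in 15 of 15 alternatives.

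Of the genes of cysteine, methionine and glutathione 3 of 22 tested were called. GCLC and GCLM, the catalytic and modifier subunits of the enzyme that joins glutamate and cysteine in the first step of glutathione synthesis, both fell. GCLM gave 7.68, 7.47, 6.55 and 7.51 TPM under CR31B against 11.36, 11.49, 14.68 and 14.17 TPM under DMSO (log2 fold change -0.74 with SE 0.13, adjusted p by limma 0.00789). GCLC gave 11.14, 9.07, 8.62 and 10.22 TPM under CR31B against 13.67, 14.48, 15.50 and 22.23 TPM under DMSO (-0.68, SE 0.16 and limma adjusted p 0.0299). In both genes every CR31B library lay below every DMSO library. GCLM was called in 15 of 15 alternatives and GCLC in 9 of 15, its call being lost with no filter on low values (limma adjusted p 0.0937) and without CR31B replicate 2, 3 or 4 or DMSO replicate 2 or 4. CHAC1, which degrades glutathione, rose from 1.06 ± 0.300 to 5.21 ± 0.827 TPM (± SD, 4 libraries a group; log2 fold change 1.59, limma adjusted p of 0.000673).

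**Figure D4:**
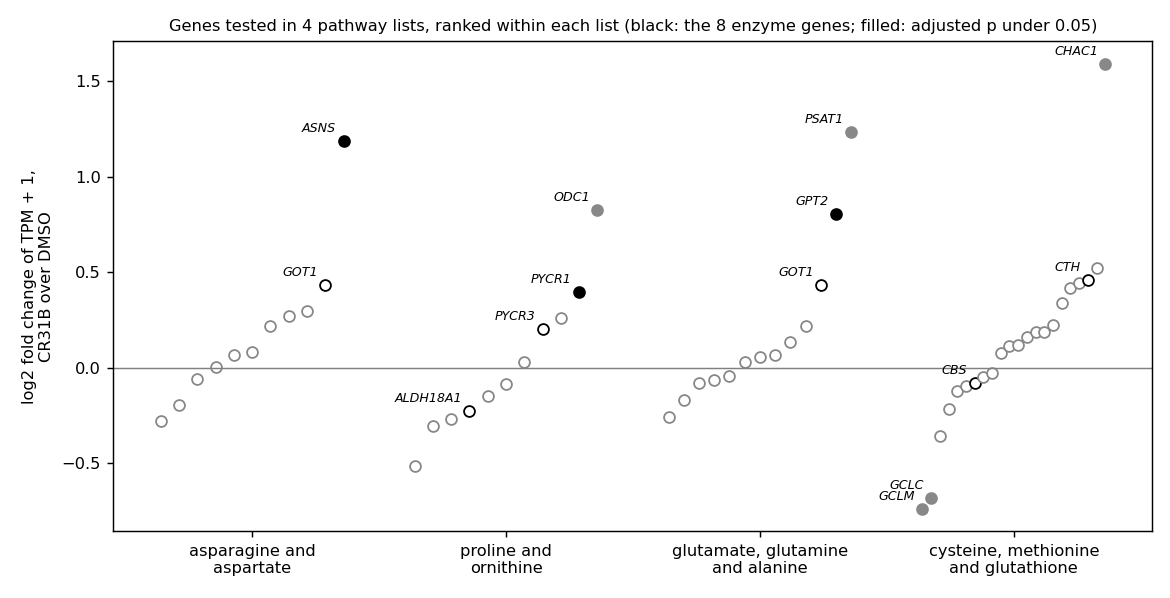
Log2 fold change of TPM + 1, CR31B over DMSO (vertical axis), of the genes tested in 4 pathway lists, ranked within each list, with the 8 enzyme genes in black and called genes filled. GOT1 and GOT2 each stand in 2 lists. Each list holds unfilled points on both sides of 0, and 8 of the 55 genes tested are filled.

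ATF4 and its partners were read beside the enzymes. ATF4 gave 313.47, 204.24, 280.00 and 309.47 TPM under CR31B (replicates 1 to 4 in order) against 172.10, 176.03, 106.21 and 181.02 TPM under DMSO (log2 fold change 0.81, limma adjusted p of 0.0338), and its call was lost in 7 of 15 alternatives: with no filter on low values and without CR31B replicate 1, 3 or 4 or DMSO replicate 1, 2 or 4. CEBPB and TRIB3, which are stress-response genes, rose by 0.84 and 0.82 on the log2 scale (limma adjusted p of 0.00887 and 0.0269). The TRIB3 call was lost in 5 of 14 alternatives, among them without CR31B replicate 1 or 3 or DMSO replicate 2 or 4. DDIT3 and CEBPG had 0.37 and 0.28 (limma adjusted p of 0.203 and 0.279). In this list 5 of 14 tested genes were called, all higher, beside 3.45% called higher over all genes tested. The others called were ATF3 and PPP1R15B, which are named because of their calls. The lists of the most closely related metabolism differed in their counts: of serine and folate genes 8 of 16 tested were called higher and 1 lower (median 0.39), and of amino acid transporters 3 of 23 were called higher and 2 lower (median 0.10). PSAT1 is counted both in the serine and folate list and in the list of glutamate, glutamine and alanine genes. Differences between lists were not tested.

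The profile of ASNS over the 8 libraries, as log2(TPM + 1) minus the gene's DMSO mean, was compared with that of the 5612 other genes whose mean reached 10 TPM. The nearest were PSAT1, CARS1 (a cysteinyl-tRNA synthetase), SHMT2 (a mitochondrial serine hydroxymethyltransferase), USP33 (a deubiquitinase) and SMIM30, with root-mean-square differences of 0.13, 0.21, 0.23, 0.26 and 0.26. GPT2 took place 18 in that order, GOT1 239, CTH 245, PYCR1 397 and ALDH18A1 4123. This likeness uses the treatment difference itself and is a description over 8 libraries.

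**Figure D5:**
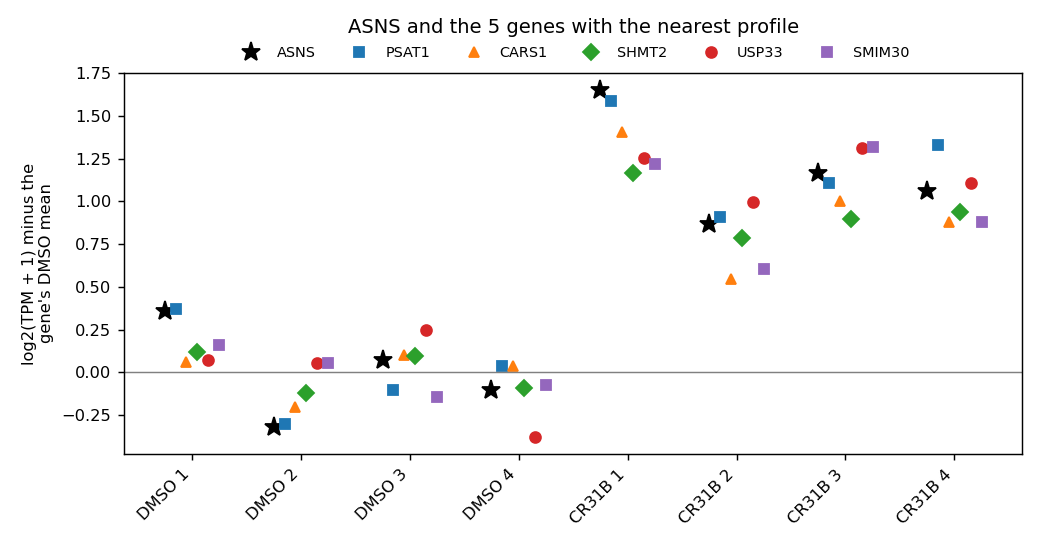
Log2(TPM + 1) minus each gene's DMSO mean (vertical axis) in the 8 libraries for ASNS (stars) and the 5 genes with the nearest profile. All 6 genes lie above 0 in the CR31B libraries, and ASNS and PSAT1 nearly coincide in CR31B replicates 1 to 3.

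The annotated leaders, the part of the mRNA before the coding sequence, were read from GENCODE release 29, because agents of this class are known to clamp eIF4A on purine-rich RNA. The longest run of A and G was 16 nt in ALDH18A1, 12 nt in GOT1, 9 nt in ASNS, 7 nt in PYCR1, 5 nt in GPT2, 4 nt in PYCR3 and CBS and 3 nt in CTH. The median over 10089 tested genes was 8 nt. The percent of them with a run at least as long was 6.9% for ALDH18A1, 19.5% for GOT1 and 43.8% for ASNS. For the other members it lay between 67.3% (PYCR1) and 98.4% (CTH). Leaders ran from 30 nt in PYCR3 to 1004 nt in GOT1, beside a median of 206 nt. Neither the runs nor the ATG counts below were adjusted for that length. A relation between such runs and the fold changes was not tested. Upstream ATG triplets were found in the leaders of GOT1 (3), ASNS (2), CBS (2) and GPT2 (1), and in 53.7% of the tested genes. The annotated start in these cells is not measured by the table, and the GENCODE leader of GOT1 has 1004 nt.

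The cell type of the label was checked against markers. Of 14 markers of sympathetic neuroblastoma, 13 had a mean of at least 1 TPM in both groups, and TH, the exception, lay between 0.35 and 1.19 TPM. Their summed level ran from 1335 to 1923 TPM in CR31B and from 1262 to 1510 TPM in DMSO. Of 12 markers of other cell types, PRRX1, CD3E and PECAM1 were at 0 in all libraries and COL1A1 was the only one with a mean of 1 TPM or more. The 12 summed to between 5.52 and 12.5 TPM in CR31B and between 8.48 and 16.2 TPM in DMSO, and their part in the results was not tested. From 17857 to 22270 genes were above 0 per library, and libraries of the same group correlated at 0.963 to 0.987 across tested genes.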

How the data were processed

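Ribosome footprints of 28 to 30 nt were sequenced from IMR32 cells in 4 CR31B and 4 DMSO libraries, and the deposited table gives 1 TPM value per gene and library. The authors made these TPM values from the reads; the submitters' processing notes name cutadapt 3.2, Bowtie2 2.3.4.1, STAR 2.7.1a, RSEM 1.2.28, DESeq2 1.32.0 and the build GRCh38 (hg38), without saying here which step each served. The annotation release, the strand setting and the handling of reads with several matches are not given in the sources used here. A sequencing depth cannot be read from TPM, so no count model and no counting interval was used.

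Groups and replicate numbers came from the labels. Symbols for 42061 of 60651 identifiers came from a names table, and the others from GENCODE release 29, which also gave positions (GRCh38) and leaders. Genes whose mean reached 1 TPM were tested on log2(TPM + 1) with limma 3.58.1 in R 4.3.3 (empirical Bayes with a mean-variance trend, two-sided, Benjamini-Hochberg adjustment). The procedure was first checked on simulated data with independent noise for each gene and library. Such data cannot show how deviations shared between libraries affect the calls. Single genes were also tested by an exact two-sided permutation of the 8 libraries. The added 1 shrinks fold changes of genes with few TPM. Promoters came from RefSeq (GRCh38.p14), where 5 of the 8 genes matched.

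Libraries of the same replicate number correlated at 0.105 to 0.333 (median 0.313) in their deviations from the group means, and those of different numbers at -0.206 to 0.134 (median -0.123). What the number marks is not in the labels. The main limma fit and the permutation test did not use it. Because each of the 4 correlations exceeded 0.1, the numbers were treated as pairs in the replicate-block alternative and in the counts of pairs. Those counts were not set against all genes tested. The 2 ranges overlap: CR31B replicate 4 correlated at 0.134 with DMSO replicate 1 and at 0.105 with DMSO replicate 4. Alternatives were another pseudocount (0.1), no filter or a minimum mean of 10 TPM, rescaling over protein-coding genes, quantile normalization, no trend, the replicate block and leaving out each library. Summing CBS with CBSL was added after seeing the data. The 8 genes, the lists and the rule for named genes were chosen with earlier results of these data known. That rule names the 8 genes, their isoenzymes, up to 3 called genes in each direction per pathway list, 5 regulators and the 5 genes most like ASNS. Some genes are not reported here and were left out of the lists.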

Additional observations from a re-analysis of the deposited data

Results flagged for a closer look

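Each value here stood apart from the other 3 libraries of its group, with a gap to its nearest neighbour above Dixon's 95% critical share of the group's range. This was met in 4 of 48 groups of libraries, and chance alone gives it in about 1 of 20. CBS was at 0.51 TPM in CR31B replicate 3, where the other CR31B libraries had 4.73 to 5.47 TPM, while CBSL was at 60.42 TPM in the same library. ALDH18A1 was at 32.73 TPM in DMSO replicate 1, where the other DMSO libraries had 25.26 to 26.45 TPM. CHAC1 was at 1.51 TPM in DMSO replicate 1, against 0.88 to 0.96 TPM in the other DMSO libraries. ATF4 was at 106.2 TPM in DMSO replicate 3, against 172.1 to 181.02 TPM in the others of that group.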

How the results depend on the processing

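With no filter on low values 442 genes were called (181 higher, 261 lower) in place of 879 (406 and 473), and of the 8 enzyme genes 1, ASNS; PYCR1 (0.40, limma adjusted p of 0.0533) and GPT2 (0.81, 0.0626) were not called, and the proline and glutamate lists held 0 and 1 called genes. More genes are tested there, 28564. Without the trend PYCR1 was not called (0.40, 0.0645) and the proline list held 1. With the replicate block 1453 genes were called (680 higher, 773 lower), GOT1 was called (0.43, 0.0430) and the asparagine list held 2; pairing changed no other call among the 8 genes. Rescaling over protein-coding genes also left out all other genes, so that 10385 were tested. It called 674 higher and 566 lower, so higher calls were the larger share (54.35%, against 46.19% in the main fit of 11778 genes). Higher calls were also the larger share without CR31B replicate 2 (53.25%) or CR31B replicate 4 (53.01%). Rescaling also called GOT1 (0.47), and the asparagine list again held 2. At a mean of at least 10 TPM, with fewer genes tested, list medians were 0.26 (proline) and -0.047 (cysteine). CBS summed with CBSL gave 0.22. Leaving out 1 library called 405 to 785 genes (197 to 393 higher, 208 to 486 lower; fewest without DMSO replicate 4), and 0 to 2 in the proline list; log2 fold changes ran from 0.35 to 0.44 for PYCR1, -0.28 to 0.42 for CBS and -0.049 to 0.15 for GOT2. Except where a construction is named, the cause was not tested. ASNS was called throughout, and of the 8 genes CBS alone changed sign in these settings. The CBS row cannot be read without CBSL. The 4 libraries a group and the absence of counts limit the precision.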
